A study of Mus musculus with 18 samples.

Results

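The 36 genes described here encode the proteins that carry glucose into a cell, break it down to pyruvate and send pyruvate either to lactate or into the mitochondrion. They were chosen by name, as glucose transporters, hexokinases, the other enzymes of glycolysis, lactate dehydrogenases, monocarboxylate transporters, pyruvate dehydrogenase with its kinases, and Mif, a cytokine gene often counted among the targets of the hypoxia response. Of these 36 genes, 35 were among the 15698 named genes of the deposited table, and Pfkfb2 was not analysed here. Of the 35 genes, 27 passed the filter on low values, a normalized read count of at least 5 in at least 3 libraries, and only these were tested.

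The T cells were CD4+ cells of 5CC7 mice, which carry a transgenic T cell receptor, from spleen and lymph node. They were activated for 4 days by P13.9 fibroblasts, a cell line that served to present antigen, loaded with pPCC peptide at 0.01, 0.1, 1.0 or 10 µM. They were set against CD4+ T cells left naive and P13.9 cells sequenced alone, and each of the 6 groups had 3 libraries. The labels give no age or sex, and no step that removed P13.9 cells from the activated cultures. They do not say whether the 3 libraries of a group came from separate mice or cultures, so a p-value measures only the spread between these libraries.

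In glycolysis, glucose is trapped by phosphorylation, split into triose phosphates and oxidised to pyruvate with a net gain of ATP. Lactate dehydrogenase turns pyruvate into lactate and restores the NAD+ that the pathway needs, and pyruvate dehydrogenase instead commits pyruvate to the citrate cycle. T cells that leave the resting state are known to take up more glucose and to release lactate even when oxygen is at hand, a state called aerobic glycolysis. The transcription factors MYC and HIF1A and the kinase MTOR are known to drive the expression of many of these genes.

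Libraries were made from the 3′ ends of mRNA, and the values are read counts divided by 1 size factor per library. Reads assigned to named genes numbered 372851 to 659715 at 10 µM and 156941 to 733009 over all 12 activated libraries, against 27789 to 97757 in naive libraries. A single read was worth 2.17 to 6.55 normalized counts in a naive library and at most 0.872 elsewhere, so a low naive value rests on few reads. The sum of 16 T cell markers lay between 1512 and 1758 at 10 µM and between 1901 and 2261 in naive libraries, against 21.2 to 43.5 in P13.9 cells. A sum of 11 myeloid markers was 806 to 1062 in naive libraries, led by S100a8 at 420.1 to 558 and S100a9 at 236 to 406, and 8.43 to 9.32 at 10 µM. Of these 11 myeloid markers 9 had a read in naive libraries, and the part of myeloid RNA in the comparisons with naive cells was not tested. In bulk RNA, fewer cells of a type and less RNA per cell cannot be told apart.

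Transcripts of the presenting cells were most frequent at the lowest dose. From 5 fibroblast genes (Cav1, Sparc, Fn1, Col1a2 and Cald1) the P13.9 share of an activated library was estimated at 34.1 ± 10.7% for 0.01 µM, 8.92 ± 3.4% for 0.1 µM, 5.40 ± 1.08% for 1.0 µM and 1.71 ± 0.713% for 10 µM (SD, n = 3 each). From 74 genes with no naive read the estimates were 23.7 ± 3.03%, 7.43 ± 1.84%, 5.25 ± 1.97% and 2.76 ± 0.508% in the same order of doses. The first estimate gave 4.75 ± 0.559% in naive libraries, which held no P13.9 cells by their labels. The counts of 0.01 µM against naive cells and against the higher doses are therefore also given with each estimated share subtracted.

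The share of all named-gene reads that fell on the 35 genes was higher in activated than in naive T cells and higher at the 3 upper doses than at 0.01 µM. It came to 0.205 ± 0.120% in naive libraries. At the doses it came to 0.481 ± 0.0238% (0.01 µM), 1.14 ± 0.182% (0.1 µM), 1.23 ± 0.210% (1.0 µM) and 1.09 ± 0.0348% (10 µM; SD, n = 3 each). The lowest library of the 3 upper doses reached 0.992%, and the highest of the naive and 0.01 µM libraries 0.505%, so these sets did not overlap. P13.9 cells alone stood at 0.482 ± 0.0520%, close to the 0.01 µM libraries. These shares are a description with no test, and their intervals cover counting error only.

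**Figure D1:**
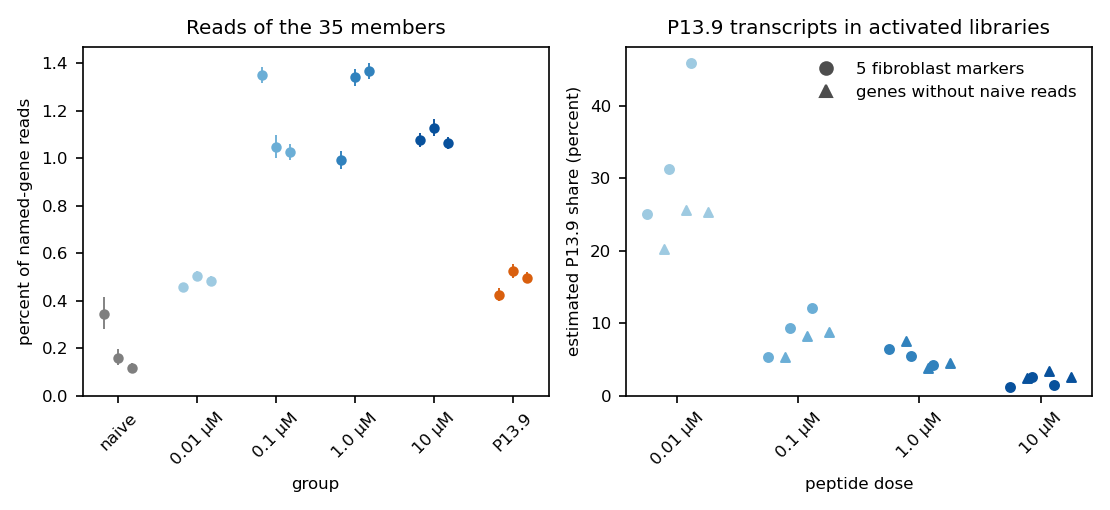
Left, percent of named-gene reads that fell on the 35 genes in each of 18 libraries, with 95% Wilson intervals for counting error. Right, estimated percent of P13.9 transcripts in each activated library by 2 gene sets. The 0.01 µM libraries are the lowest of the activated ones on the left and the highest on the right.

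Compared with naive T cells, most of the tested genes were higher at 0.1, 1.0 and 10 µM, from the glucose transporters Slc2a1 and Slc2a3 through Hk2, Pfkp, Aldoa and Pkm to Ldha and the lactate exporter Slc16a3. At 10 µM limma called 19 of the 27 tested genes higher and 1 lower than in naive cells, where 24.3% of all 7264 tested genes were called higher and 32.8% lower. edgeR, run on the read counts recovered from the table, called 20 of the 27 higher and 0 lower, where 29.6% of all genes were called higher and 25.3% lower. On simulated data limma called unchanged genes against the shallow naive libraries, mostly as higher, more often than edgeR did. Those data followed the model that edgeR fits, so they cannot decide which calls are right here, and both are given. The log2 difference had a median of 1.69 over the 27 genes and of -0.07 over all genes tested. In edgeR's scaling the median of all genes was 0.33, and with libraries rescaled to equal totals it was 0.46, so changes against naive cells are to be read relative to that shift.

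The counts at 1.0 and 0.1 µM were like those at 10 µM. At 1.0 µM limma called 19 genes higher and 1 lower, where 23.3% and 31.4% of all genes were called. At 0.1 µM it again called 19 higher and 1 lower, where 24.9% and 31.5% of all genes were called. At 0.01 µM limma called 13 higher and 4 lower, where 21.7% and 27.7% of all genes were called, and edgeR called 13 higher and 0 lower, where 26.6% and 19.2% of all genes were called. These comparisons share the 3 naive libraries. With the P13.9 share subtracted, limma called 11 higher and 4 lower at 0.01 µM by the fibroblast estimate. By the other it called 10 and 2. Of all 7264 genes it called 1280 higher and 2228 lower, then 1353 and 2120, against 1578 and 2010 with nothing subtracted. Aldoa, Pgm1, Eno3, Pfkfb3 and Bpgm lost the call by both estimates. By the fibroblast estimate Gpi1 and Pdha1 were called lower (-1.92 and -2.30, limma adjusted p = 0.0369 and 0.0208) and Hk1 higher. Gapdh, Pgk1 and Pgam1 reached the filter with no naive library at the minimum, so their calls against naive cells follow in part from the filter.

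**Figure D2:**
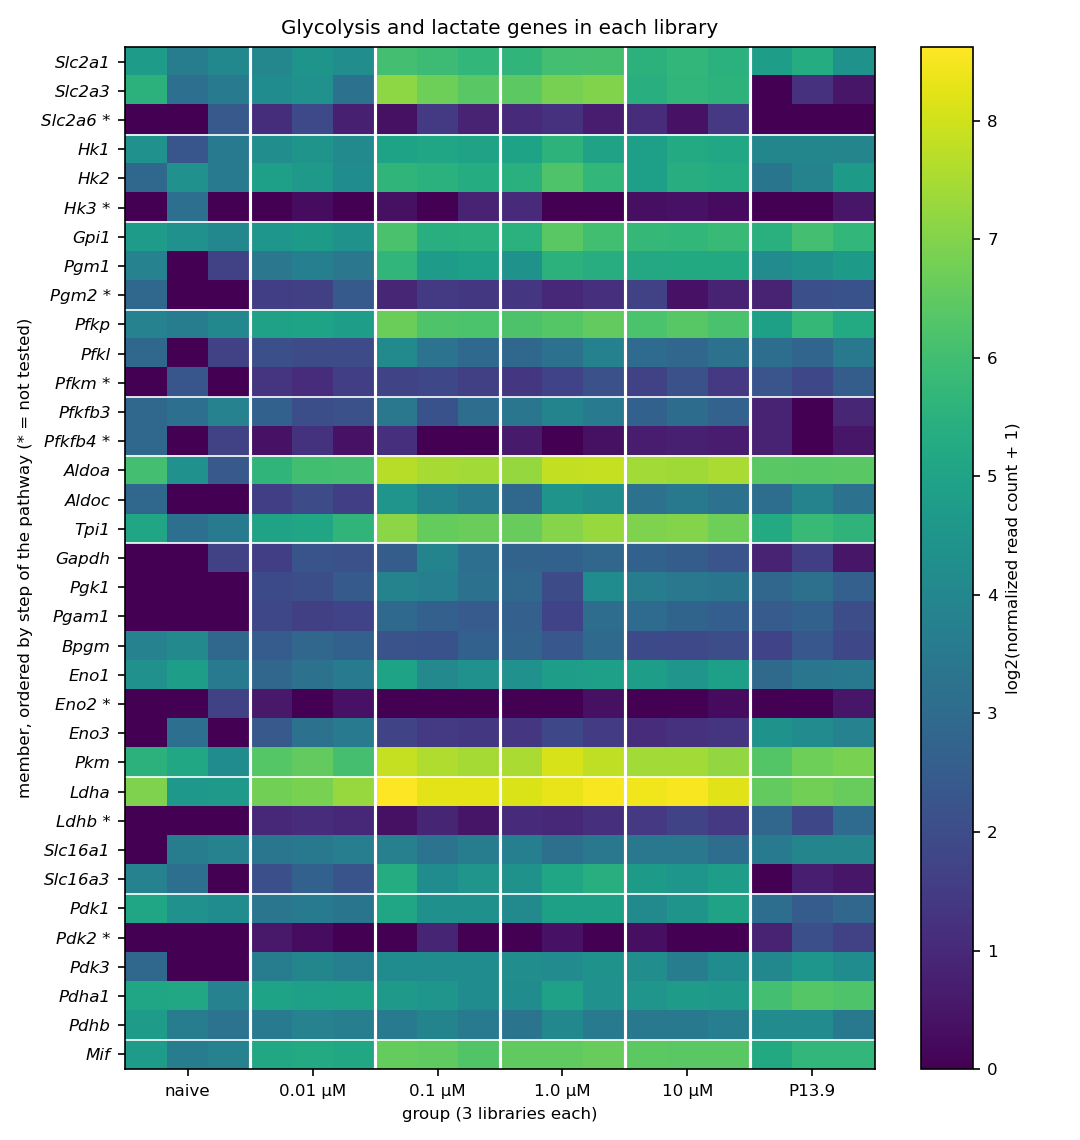
Normalized read counts of the 35 genes on the log2(value + 1) scale, by gene (rows, in the order of the pathway) and library (columns, 3 per group). In 21 of 35 rows the mean at each of 0.1, 1.0 and 10 µM lies above those of naive and 0.01 µM libraries, in 16 above that of P13.9 cells too, and the rows marked with an asterisk did not pass the filter.

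Between doses limma's calls fell between 0.01 µM and the 3 higher doses, among them Slc2a1, Slc2a3, Pfkp, Pkm and Mif, and by edgeR Slc2a3 was also lower at 10 µM than at 0.1 and 1.0 µM. At 10 µM against 0.01 µM limma called 9 of the 27 genes higher and 0 lower, where 1.90% of all genes were called higher and 6.25% lower. edgeR called 19 higher and 1 lower, where 15.5% and 19.3% of all genes were called. The median log2 difference was 1.11 over the 27 genes and -0.03 over all genes, and 21 of the 27 had all 10 µM libraries above all 0.01 µM libraries, where 21.8% of all genes did. At 0.1 µM against 0.01 µM limma called 9 higher and 0 lower, where 2.18% and 3.41% of all genes were called, and edgeR called 20 higher and 1 lower, where 11.3% and 12.7% of all genes were called. These counts share the 0.01 µM libraries, and 5 of the 27 genes (Pfkl, Aldoc, Gapdh, Pgk1 and Pgam1) reached the filter with no 0.01 µM library at the minimum.

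The 9 genes that limma called at 10 µM over 0.01 µM were Slc2a1, Slc2a3, Gpi1, Pfkp, Tpi1, Eno1, Pkm, Pdk1 and Mif. The calls of Slc2a1, Gpi1, Pfkp and Mif held when any 1 of the 6 libraries was left out, with limma adjusted p between 0.00246 and 0.0495. Slc2a3, Pdk1 and Pkm lost the call whichever library of the 6 was left out, at limma adjusted p between 0.0573 and 0.195. Tpi1 lost it without 0.01 µM replicate A (adjusted p 0.06) or B (0.0557) or 10 µM replicate A (0.054) or B (0.0584), and Eno1 without replicate A of 0.01 µM (0.0596) or of 10 µM (0.0542), all by limma. All 9 were called by edgeR. With the P13.9 share subtracted, limma called 12 genes at 10 µM over 0.01 µM by the fibroblast estimate and 9 by the other, 14 and 10 at 0.1 µM over 0.01 µM, and 12 and 9 at 1.0 µM over 0.01 µM. Over all 7264 genes limma then called 355 and 204, 335 and 250, and 280 and 188 higher in that order. With nothing subtracted these were 138, 158 and 119. At 10 µM over 0.01 µM Slc2a3 and Pdk1 lost the call by both estimates (Pdk1 limma adjusted p 0.113 and 0.0841). Pgam1, Aldoc, Pfkl, Pgm1 and Pgk1 gained it by the fibroblast estimate, which took 62.4 to 142% of their 0.01 µM means.

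**Figure D3:**
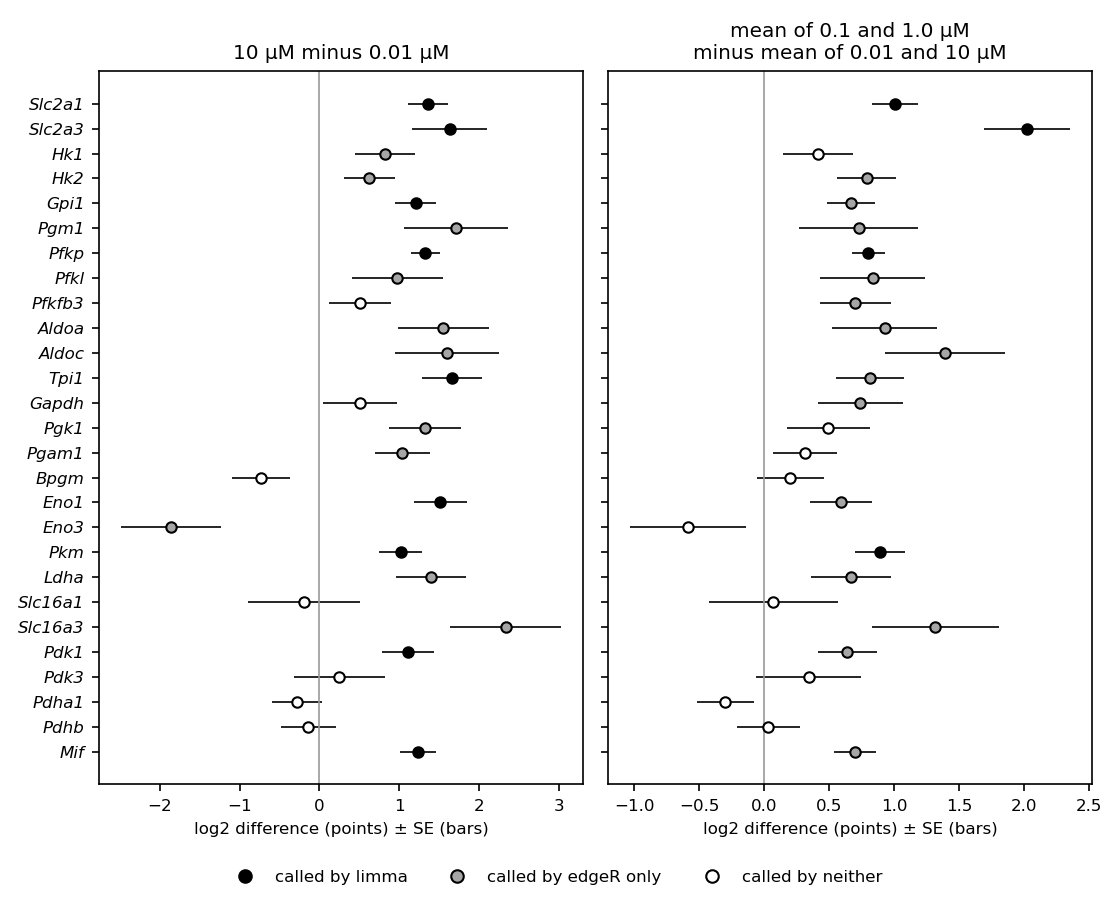
Log2 differences of the 27 tested genes (points) with their standard errors (bars), for 10 µM minus 0.01 µM on the left and for the middle doses (0.1 and 1.0 µM, averaged) minus the end doses (0.01 and 10 µM) on the right. Of the 27 points, 22 lie above 0 on the left and 25 on the right, Slc2a3 is the largest on the right at 2.02, and Eno3 is the lowest in both.

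Both tested glucose transporters rose at 10 µM over naive cells and over 0.01 µM. Slc2a1 encodes GLUT1, the main glucose carrier of activated T cells, and its normalized read counts were 26.2, 11.7 and 15.2 in naive libraries, 14.9, 20.9 and 17.9 with 0.01 µM peptide, 65.8, 59.3 and 51.8 with 0.1 µM, 49.3, 64.5 and 66.7 with 1.0 µM and 45.5, 51.0 and 44.8 with 10 µM. The 0.01 µM libraries overlapped the naive ones, and every library of the 3 upper doses lay above both. Slc2a1 rose at 10 µM over naive cells by 1.44 ± 0.25 on the log2 scale (SE, limma adjusted p = 0.000176) and over 0.01 µM by 1.36 ± 0.25 (limma adjusted p = 0.00349). At 0.01 µM it was not called higher than in naive cells by limma (log2 difference 0.08 ± 0.25, adjusted p = 0.816) or by edgeR (adjusted p = 0.0851).

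Slc2a3 encodes GLUT3, a glucose carrier of high affinity. Its counts were 45.9, 7.81 and 10.8 in naive libraries, 17.4, 19.5 and 8.43 with 0.01 µM peptide, 143, 104 and 85.3 with 0.1 µM, 86.6, 115 and 126 with 1.0 µM and 42.6, 49.7 and 46.9 with 10 µM. They were highest at 0.1 and 1.0 µM, where every library lay above every 10 µM library, and naive library 1 reached the 10 µM range. At 10 µM Slc2a3 was higher than in naive cells by 1.48 ± 0.47 (log2, limma adjusted p = 0.014), a call lost without naive library 2 (1.01, adjusted p = 0.076) or 3 (1.22, adjusted p = 0.0612) and held by edgeR (adjusted p = 5.83e-05). Over 0.01 µM the log2 difference was 1.63 ± 0.47 (limma adjusted p = 0.0443). Slc2a3 was nearly absent from P13.9 cells, at 0, 1.34 and 0.442, and subtracting a P13.9 share, which rescales the rest of the library, gave log2 differences between these doses of 1.10 and 1.32 that limma did not call (adjusted p = 0.164 and 0.113). The third transporter, Slc2a6, had between 2 and 21 reads in a T cell group and was not tested.

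Hexokinases phosphorylate glucose and hold it in the cell. Hk2, the isoenzyme most tied to activation and to growth, had counts of 6.55, 19.5 and 10.8 in naive libraries, 28.0, 23.6 and 17.2 with 0.01 µM peptide, 49.4, 44.5 and 39.8 with 0.1 µM, 43.0, 75.2 and 51.3 with 1.0 µM and 28.5, 40.1 and 38.1 with 10 µM. All libraries of the 3 upper doses lay above all naive and 0.01 µM libraries. Hk2 rose at 10 µM over naive cells by 1.56 ± 0.32 (log2, limma adjusted p = 0.000716), and over 0.01 µM the log2 difference was 0.62 ± 0.32, called by edgeR (adjusted p = 0.0156) and not by limma (adjusted p = 0.277). Hk1, the constitutive form, averaged 33.5 ± 4.89 at 10 µM and 11.5 ± 7.90 in naive cells (SD, n = 3 each) and rose by 1.69 ± 0.38 (limma adjusted p = 0.00139). Hk3 had 1 to 3 reads in each T cell group and was not tested.

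Gpi1 turns glucose phosphate into fructose phosphate. Its counts were 26.2, 19.5 and 15.2 in naive libraries, 21.9, 25.3 and 20.6 with 0.01 µM peptide, 69.2, 41.0 and 43.9 with 0.1 µM, 44.1, 84.6 and 63.6 with 1.0 µM and 52.3, 51.4 and 55.7 with 10 µM, and every 10 µM library lay above every 0.01 µM library. Gpi1 rose at 10 µM over naive cells by 1.38 ± 0.26 (log2, limma adjusted p = 0.000393) and over 0.01 µM by 1.20 ± 0.26 (limma adjusted p = 0.0103). With the fibroblast estimate of the P13.9 share subtracted the change over naive cells was 1.38 and lost limma's call (adjusted p = 0.118). Pgm1, a phosphoglucomutase that links glucose phosphate to glycogen, stood at 36.4 ± 0.434 at 10 µM and rested on 3 reads in naive cells. The ratio of their pooled levels was 10.6 (95% counting interval 3.59 to 51.4), and limma's adjusted p was 0.000404. Pgm2 had between 1 and 34 reads in a T cell group and was not tested.

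Phosphofructokinase catalyses the committed step of glycolysis. Pfkp, the platelet-type subunit, had counts of 13.1, 11.7 and 15.2 in naive libraries, 29.5, 30.8 and 27.3 with 0.01 µM peptide, 103, 75.0 and 70.8 with 0.1 µM, 74.0, 80.9 and 93.8 with 1.0 µM and 71.7, 82.2 and 70.3 with 10 µM. The 3 sets of naive, 0.01 µM and upper-dose libraries did not overlap one another. Pfkp had the smallest limma adjusted p of the 27 genes at 10 µM over 0.01 µM, with a log2 difference of 1.32 ± 0.18 (adjusted p = 0.000384), and at 10 µM over naive cells it rose by 2.41 ± 0.18 (limma adjusted p = 3.58e-08). It was already higher at 0.01 µM than in naive cells, by 1.08 ± 0.18 (limma adjusted p = 0.000168). Pfkl, the liver-type subunit, averaged 7.15 ± 1.04 at 10 µM and rested on 2 reads in naive cells. Its call over naive cells by limma (log2 difference 1.49 ± 0.57, adjusted p = 0.0362) was lost in 5 of the 6 fits that left out 1 library, at adjusted p up to 0.17 without naive library 2 and 0.0527 without naive library 3. Without 10 µM replicate A, B or C its limma adjusted p was 0.0772, 0.0624 or 0.0956. The muscle-type gene Pfkm had 1 to 27 reads in a T cell group and was not tested.

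The PFKFB enzymes make and remove the sugar phosphate that activates phosphofructokinase. Pfkfb3 counts were 6.55, 7.81 and 13.0 in naive libraries, 5.36, 3.25 and 3.37 with 0.01 µM peptide, 10.1, 3.49 and 7.46 with 0.1 µM, 9.45, 13.7 and 10.5 with 1.0 µM and 5.37, 7.19 and 5.55 with 10 µM. The 10 µM libraries lay narrowly above the 0.01 µM ones and overlapped the naive range. Pfkfb3 was called neither at 10 µM over naive cells (log2 difference -0.48 ± 0.39, limma adjusted p = 0.302) nor over 0.01 µM (0.51 ± 0.39, limma adjusted p = 0.507). Pfkfb4 had 2 to 9 reads in a T cell group.

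Aldolase splits the doubly phosphorylated sugar into triose phosphates, and triose phosphate isomerase interconverts them. Aldoa counts were 65.5, 19.5 and 4.33 in naive libraries, 49.1, 62.8 and 65.1 with 0.01 µM peptide, 205, 181 and 171 with 0.1 µM, 153, 226 and 233 with 1.0 µM and 172, 166 and 182 with 10 µM. Naive library 1 reached the 0.01 µM range, and the libraries of the upper doses lay above all others. At 10 µM Aldoa rose over naive cells by 3.17 ± 0.57 (log2, limma adjusted p = 0.000247). Over 0.01 µM the log2 difference was 1.55 ± 0.57, called by edgeR (adjusted p = 2.81e-07) and not by limma (adjusted p = 0.119). Rows of the table named Aldoart1 and Aldoart2, retrogenes of Aldoa, held 104 and 12 reads in T cell libraries beside 5837 of Aldoa.

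Tpi1 counts were 32.8, 7.81 and 10.8 in naive libraries, 30.5, 33.6 and 48.9 with 0.01 µM peptide, 137, 95.9 and 99.4 with 0.1 µM, 97.6, 131 and 154 with 1.0 µM and 122, 129.8 and 104 with 10 µM, and the upper doses did not overlap 0.01 µM. Tpi1 rose at 10 µM over naive cells by 2.97 ± 0.37 (log2, limma adjusted p = 7.94e-06) and over 0.01 µM by 1.66 ± 0.37 (limma adjusted p = 0.0122). Aldoc, the brain-type aldolase, averaged 9.06 ± 1.05 at 10 µM and 2.35 ± 0.576 at 0.01 µM and rested on 1 naive read. For Aldoc the P13.9 share by the fibroblast estimate came to 142% of its whole level at 0.01 µM, and its log2 difference between 10 and 0.01 µM, with nothing subtracted, was 1.59.

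The lower part of the pathway, from Gapdh to Pkm, gave few reads for several genes. Gapdh, which oxidises glyceraldehyde phosphate, had 53 reads at 10 µM and 1 in naive cells, a ratio of pooled levels of 3.95 (95% counting interval 0.679 to 159). Rows named Gapdh-ps16 and Gapdh-ps14, processed copies of Gapdh, held 148 and 83 reads in T cell libraries beside 190 of Gapdh itself, so reads may be split between them and its level is uncertain. Pgk1 and Pgam1, a kinase that makes ATP and a mutase, had 0 reads in naive libraries. RefSeq names 2 pseudogenes after each of them, and whether reads were lost to such copies was not tested. Against the floor of 3 reads over the naive group Pgk1 was at least 2.91-fold higher at 10 µM, at least 2.74-fold higher at 1.0 µM and at least 3.31-fold higher at 0.1 µM. Pgam1 was at least 1.69-fold higher at 10 µM, at least 1.46-fold higher at 1.0 µM and at least 1.65-fold higher at 0.1 µM.

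By edgeR the enolase genes Eno1 and Eno3 changed in opposite directions between 10 and 0.01 µM. Eno1, the widely expressed enolase, had counts of 19.7, 27.3 and 10.8 in naive libraries, 6.20, 8.58 and 10.8 with 0.01 µM peptide, 30.8, 15.7 and 19.5 with 0.1 µM, 19.4, 26.7 and 28.0 with 1.0 µM and 27.7, 21.6 and 28.0 with 10 µM. At 0.01 µM its libraries lay below all naive ones, replicate C by a narrow margin, and the 10 µM libraries overlapped the naive range. Over 0.01 µM Eno1 rose at 10 µM by 1.51 ± 0.33 (log2, limma adjusted p = 0.0108). Over naive cells the 10 µM difference was 0.48 ± 0.33, called by edgeR (adjusted p = 0.00783) and not by limma (adjusted p = 0.232).

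Eno3, the muscle enolase, had counts of 0, 7.81 and 0 in naive libraries, 4.35, 8.58 and 10.8 with 0.01 µM peptide, 2.44, 1.74 and 1.66 with 0.1 µM, 1.57, 2.67 and 1.84 with 1.0 µM and 1.13, 1.37 and 1.53 with 10 µM. It was higher at 0.01 µM than at any other dose and stood at 19.9, 16.7 and 13.3 in P13.9 cells. Eno3 was the 1 gene that edgeR called lower at 10 µM than at 0.01 µM (log2 difference -2.40, adjusted p = 8.82e-05), and limma did not call it (-1.85 ± 0.63, adjusted p = 0.0861). A P13.9 share by the fibroblast estimate would account for 71.7% of its level at 0.01 µM. With that share subtracted its log2 difference was -0.83 (limma adjusted p = 0.58). Eno3 reached the filter with no 0.1, 1.0 or 10 µM library at the minimum, so its lower level there follows in part from the filter. Eno2, the neuronal enolase, had 0 to 4 reads in a T cell group.

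Bpgm, which makes the bisphosphoglycerate that binds haemoglobin, was the gene that limma called lower than in naive cells at the 3 upper doses, and edgeR called it at none of them. It had 2.82, 2.74 and 3.06 at 10 µM and 13.1, 15.6 and 6.50 in naive libraries, which do not overlap. The log2 difference was -1.64 ± 0.36 (limma adjusted p = 0.00136), with edgeR at an adjusted p of 0.091. At 1.0 µM limma's adjusted p was 0.0454, and the call was lost in 5 of 6 fits that left out 1 library, without naive library 1 (0.0717) or 2 (0.12) or 1.0 µM replicate A (0.0771), B (0.146) or C (0.0524). No 10 µM library reached the filter's minimum for Bpgm. A sum of 4 erythroid markers was 0.575 to 4.80 at 10 µM and 19.7 to 50.8 in naive libraries, and its part in this result was not tested.

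Pkm encodes pyruvate kinase, which makes pyruvate and ATP, and its 3′ reads do not separate the M1 and M2 forms. Its counts were 45.9, 35.1 and 17.3 in naive libraries, 81.2, 92.3 and 66.8 with 0.01 µM peptide, 230.5, 193 and 176 with 0.1 µM, 185, 275 and 222 with 1.0 µM and 169, 169.6 and 147 with 10 µM. The naive, 0.01 µM and 10 µM libraries did not overlap one another, and every library at 0.1 and 1.0 µM lay above every 10 µM library. Pkm rose at 10 µM over naive cells by 2.37 ± 0.27 (log2, limma adjusted p = 3.1e-06) and over 0.01 µM by 1.02 ± 0.27 (limma adjusted p = 0.0313). At 0.01 µM it was already higher than in naive cells, by 1.36 ± 0.27 (limma adjusted p = 0.000773).

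**Figure D4:**
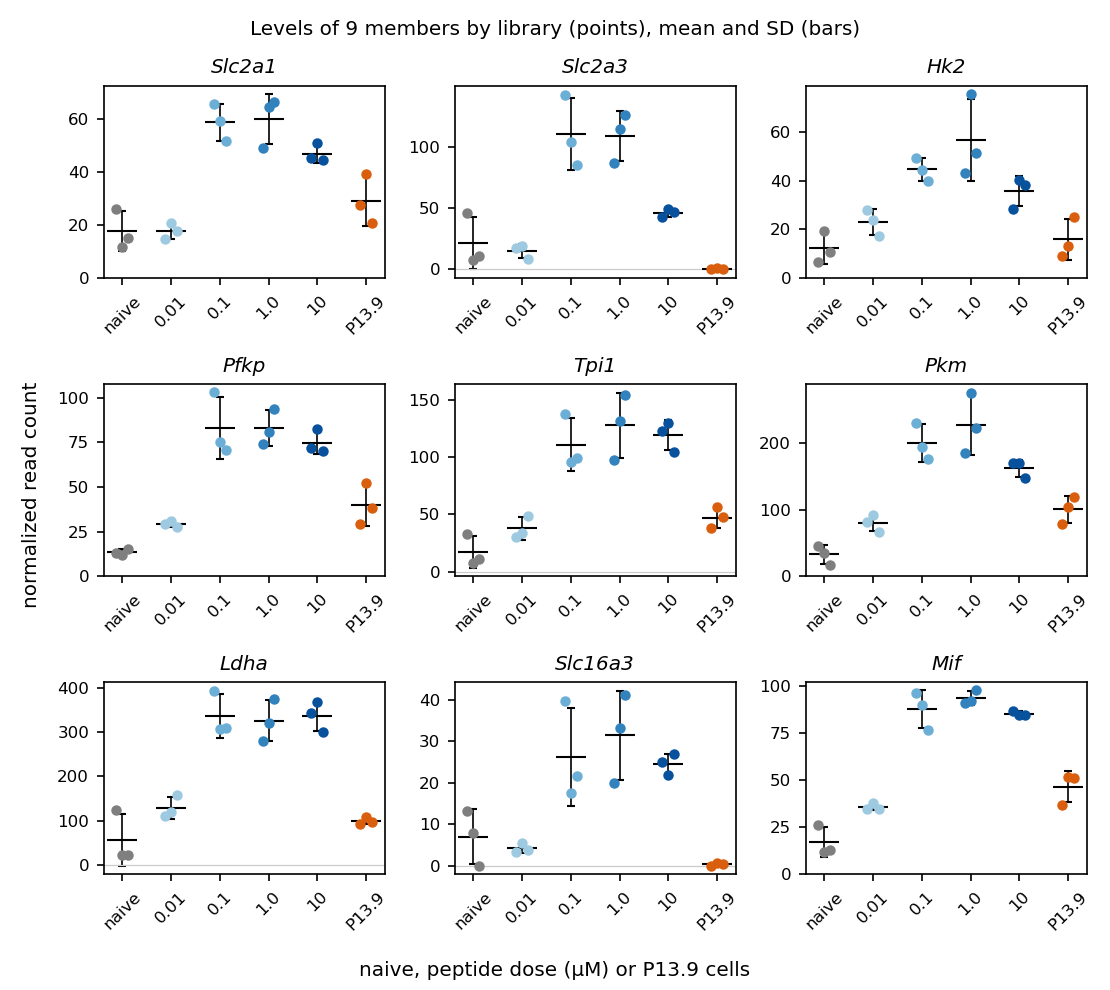
Normalized read counts of 9 genes in each library (points) with the mean and SD of 3 libraries (bars), for naive cells, the 4 doses in µM and P13.9 cells. Slc2a3 falls to a mean of 46.4 at 10 µM, against 109 at 1.0 µM, and Ldha stays near its 0.1 µM level.

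Ldha encodes the lactate dehydrogenase subunit that favours lactate. Its counts were 125, 23.4 and 23.8 in naive libraries, 110.0, 119 and 157 with 0.01 µM peptide, 393, 307 and 309 with 0.1 µM, 281, 322 and 374 with 1.0 µM and 343, 367 and 300.2 with 10 µM. Naive library 1 lay within the 0.01 µM range and the other naive libraries far below it, and all libraries of the upper doses lay above both groups. Ldha rose at 10 µM over naive cells by 2.99 ± 0.44 (log2, limma adjusted p = 3.68e-05). Over 0.01 µM the difference was 1.39 ± 0.44, called by edgeR (adjusted p = 2.11e-06) and not by limma (adjusted p = 0.0651). Ldhb, the subunit that favours pyruvate, had 0 naive reads and 3 to 22 reads at a dose, under or near the floor, and was not tested.

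Lactate leaves the cell through monocarboxylate transporters. Slc16a3 encodes MCT4, known from cells that export much lactate, and its counts were 13.1, 7.81 and 0 in naive libraries, 3.35, 5.33 and 3.71 with 0.01 µM peptide, 39.6, 17.4 and 21.5 with 0.1 µM, 19.9, 33.1 and 41.2 with 1.0 µM and 24.9, 21.9 and 26.8 with 10 µM. The upper doses lay above all 0.01 µM and naive libraries. At 10 µM Slc16a3 rose over naive cells by 2.35 ± 0.69 (log2, limma adjusted p = 0.00906), on 4 naive reads, and over 0.01 µM the difference was 2.33 ± 0.69, called by edgeR (adjusted p = 5.71e-08) with limma at an adjusted p of 0.0506. P13.9 cells gave 2 reads of Slc16a3 in all. Slc16a1, which encodes MCT1, averaged 9.10 ± 1.41 at 10 µM and 8.23 ± 7.16 in naive cells (SD, n = 3 each) and was not called (log2 difference 0.83 ± 0.70, limma adjusted p = 0.328).

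Of pyruvate dehydrogenase and its kinases, only Pdk3 was called higher at 10 µM than in naive cells. Pdk1, a kinase that switches pyruvate dehydrogenase off, had counts of 32.8, 19.5 and 17.3 in naive libraries, 9.55, 10.4 and 9.11 with 0.01 µM peptide, 32.9, 19.2 and 19.1 with 0.1 µM, 16.3, 29.1 and 28.6 with 1.0 µM and 16.4, 21.2 and 30.5 with 10 µM. It was lowest at 0.01 µM and did not differ from naive cells at 10 µM past the threshold (log2 difference -0.02 ± 0.32, limma adjusted p = 0.961). Over 0.01 µM Pdk1 rose at 10 µM by 1.11 ± 0.32 (limma adjusted p = 0.0455). At 0.01 µM it was below naive cells by limma (log2 difference -1.13 ± 0.32, adjusted p = 0.00931) and not called by edgeR (adjusted p = 0.422). Pdk2 had 0 to 4 reads in a T cell group and was not tested.

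Pdk3, a kinase of the same family, averaged 15.5 ± 3.65 at 10 µM and 12.7 ± 1.68 at 0.01 µM, and had 1 read in naive cells. The ratio of pooled levels at 10 µM over naive cells was 13.94 (95% counting interval 2.47 to 553), and limma's adjusted p was 0.000324. Pdha1 and Pdhb, the subunits of the first enzyme of the complex, were not called at 10 µM over naive cells, with log2 differences of -0.06 ± 0.31 (limma adjusted p = 0.884) and -0.35 ± 0.34 (adjusted p = 0.403). Pdha1 stood at 65.2, 80.9 and 75.1 in P13.9 cells and 30.8, 28.1 and 28.7 at 0.01 µM, and by the fibroblast estimate a P13.9 share would make up 86.2% of that 0.01 µM level.

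Mif encodes macrophage migration inhibitory factor, a tautomerase and secreted cytokine. Its counts were 26.2, 11.7 and 13.0 in naive libraries, 34.8, 37.8 and 34.4 with 0.01 µM peptide, 96.0, 89.8 and 76.6 with 0.1 µM, 90.8, 91.6 and 97.5 with 1.0 µM and 86.4, 84.6 and 84.5 with 10 µM. As with Pfkp, naive, 0.01 µM and upper-dose libraries formed 3 sets with no overlap. Mif rose at 10 µM over naive cells by 2.35 ± 0.23 (log2, limma adjusted p = 5.62e-07) and over 0.01 µM by 1.23 ± 0.23 (limma adjusted p = 0.00369). Rows named as Mif pseudogenes held up to 269 reads each in T cell libraries beside 2847 of Mif.

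The labels carry numbers that fall into 2 runs, 1 with the naive, 0.01 µM, 1.0 µM and P13.9 samples and 1 with the 0.1 and 10 µM samples, and they do not say what the numbers stand for. The step from 0.01 to 10 µM crosses these runs. So does every other comparison of 10 or 0.1 µM with naive cells, P13.9 cells, 0.01 µM or 1.0 µM. In these, a difference between the runs cannot be told apart from one between the groups. Doses were therefore also compared within each run. Within the first, 1.0 µM over 0.01 µM, limma called 11 of the 27 genes higher and 0 lower, where 1.64% and 2.66% of all genes were called. Slc2a3 rose there by 2.83 ± 0.47 (log2, limma adjusted p = 0.0032), Slc2a1 by 1.70 ± 0.25 (adjusted p = 0.00136) and Pkm by 1.49 ± 0.27 (adjusted p = 0.00594). Hk2 and Slc16a3 were called in this comparison and not at 10 µM, at limma adjusted p of 0.0398 and 0.0458, and both lost the call with any 1 library left out (adjusted p 0.0514 to 0.179).

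Within the second run, 10 µM over 0.1 µM, limma called 0 of the 27 genes, where 0.0964% of all genes were called. edgeR called Slc2a3 lower at 10 µM (log2 difference -1.20, adjusted p = 0.00152) and no other of the 27, where 1.18% of all genes were called lower. Slc2a3 was also the 1 gene that edgeR called at 10 µM over 1.0 µM (-1.22, adjusted p = 0.00118), where 1.72% of all genes were called lower and limma, calling 0.0826% of all genes, called 0 of the 27. At an unadjusted p under 0.05 limma had 1 of the 27 genes at 10 µM over 0.1 µM and 1 at 10 µM over 1.0 µM. Of all 7264 genes it had 371 and 380 there, so these counts are no result about the 27. At 1.0 µM over 0.1 µM limma and edgeR called 0 of the 27 and 0% of all genes. By limma 0 of the 27 and 110 of all 7264 genes had an unadjusted p under 0.05 there.

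The mean of 0.1 and 1.0 µM was compared with the mean of 0.01 and 10 µM, a contrast with 1 group of each run on either side. The contrast is also positive for a gene that is low at 0.01 µM and flat above it, and limma called 0 of the 27 genes between any pair of the 3 upper doses. limma called 4 of the 27 genes higher and 0 lower, where 0.619% of all genes were called higher and 0.138% lower, and edgeR called 18 higher, where 5.81% of all genes were called higher. Slc2a3 had the largest log2 difference, 2.02 ± 0.33 (limma adjusted p = 0.00968), and it and Pkm were the 2 of the 27 genes with every middle-dose library above every end-dose library. Such a gap was seen in 1.60% of all genes. Slc2a1 was higher by 1.00 ± 0.18 (adjusted p = 0.0137), Pkm by 0.89 ± 0.19 (adjusted p = 0.0479) and Pfkp by 0.80 ± 0.13 (adjusted p = 0.00828), all by limma.

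The calls of Slc2a3 and Pfkp held with any 1 of the 12 libraries left out. Pkm lost its call in each of the 12 fits, at limma adjusted p of 0.0557 to 0.137. Slc2a1 lost it without replicate A of 0.01 µM (0.0553), replicate A of 0.1 µM (0.0572), replicate C of 1.0 µM (0.051) or replicate A of 10 µM (0.0553). Over the 27 genes the highest dose mean fell at 0.01 µM for 3, at 0.1 µM for 7, at 1.0 µM for 13 and at 10 µM for 4, where 40.3%, 21.8%, 15.6% and 22.3% of all tested genes peaked. The lowest dose mean was at 0.01 µM for 22 of the 27 genes and for 34.5% of all tested genes.

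The presenting cells expressed most of the pathway themselves. In P13.9 cells against naive T cells limma called 16 of the 27 genes higher and 6 lower, where 29.9% and 29.1% of all 8179 genes tested over 18 libraries were called. Among the lower ones Slc2a3 stood at 0, 1.34 and 0.442 in P13.9 cells and 45.9, 7.81 and 10.8 in naive cells, a log2 difference of -3.50 ± 0.47 (limma adjusted p = 4.82e-06). Pfkfb3 and Pdk1 were also lower in P13.9 cells, with log2 differences of -2.71 ± 0.40 (limma adjusted p = 1.46e-05) and -1.72 ± 0.32 (adjusted p = 0.00016). Slc2a3, Pfkfb3, Gapdh, Bpgm and Slc16a3 reached the filter with no P13.9 library at the minimum. Their low levels in P13.9 cells therefore follow in part from the filter.

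At 10 µM against P13.9 cells limma called 14 of the 27 genes higher and 2 lower, where 15.6% and 26.4% of all genes were called. The ratio of pooled levels was 78.2 for Slc2a3 (95% counting interval 26.6 to 380) and 63.3 for Slc16a3 (17.4 to 525), with 3 and 2 P13.9 reads. Both genes reached the filter with no P13.9 library at the minimum, so these ratios follow in part from the filter. Ldha was higher by 1.74 ± 0.41 (log2, limma adjusted p = 0.00204), Eno1 by 1.45 ± 0.32 (adjusted p = 0.00142) and Tpi1 by 1.33 ± 0.35 (adjusted p = 0.00566). The 2 lower genes were Eno3 (-2.90 ± 0.60, limma adjusted p = 0.000811) and Pdha1 (-1.59 ± 0.29, adjusted p = 0.000243). The mean in P13.9 cells exceeded that at 0.01 µM for 18 of the 27 genes (66.7%) and for 51.7% of all genes tested.

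Ratios between isoenzymes were compared within libraries, for the 7 of 10 planned pairs in which both genes passed the filter, with p-values adjusted over 14 tests. Pdk1 over Pdk3, as log2 of the values plus 1, was 0.504 ± 0.536 at 10 µM and 3.57 ± 1.23 in naive cells (SD, n = 3 each). Over the 12 activated libraries it was lower than in the 3 naive ones by 3.35 on the log2 scale, a difference of -3.35 (exact permutation test, 2-sided, p = 0.0044, adjusted p = 0.0205), and all 12 lay below all 3. It rests on 1 naive read of Pdk3. Leaving out any naive library took the adjusted p to between 0.0513 and 0.103.

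Eno1 over Eno3, where Eno3 has the limit set by the filter, changed by 1.03 per 10-fold dose (permutation test with 100000 resamples, 2-sided, p = 0.00016, adjusted p = 0.00224, 12 libraries). With the P13.9 share subtracted the change was 0.673 by the fibroblast estimate, which lost the call (permutation test, adjusted p = 0.0569), and 0.897 by the other (adjusted p = 0.0278). The log2 ratio averaged 0.142 ± 0.246 at 0.01 µM and 2.92 ± 0.303 at 0.1 µM, then 3.08 ± 0.232 at 1.0 µM and 3.51 ± 0.250 at 10 µM (SD, n = 3 each), with -0.844 ± 0.530 in P13.9 cells. Within runs of label numbers it differed by 2.94 for 1.0 over 0.01 µM and by 0.587 for 10 over 0.1 µM, and the exact permutation test gave its smallest possible p for 3 against 3, 0.1, in both. Slc16a3 over Slc16a1 changed by 0.796 per 10-fold dose (permutation p = 0.00366, adjusted p = 0.0205), with 2.70 for 1.0 over 0.01 µM (exact permutation p = 0.1) and 0.210 for 10 over 0.1 µM (exact permutation p = 0.5). Its adjusted p was 0.0523 without 0.01 µM replicate A and 0.052 without replicate C, by the same permutation test. Slc2a3 over Slc2a1, Hk2 over Hk1, Pfkp over Pfkl and Aldoa over Aldoc passed the threshold in neither test. A slope or a mean over all doses can miss a ratio that peaks at the middle doses. Slc2a3 over Slc2a1 averaged -0.295 ± 0.63 at 0.01 µM and 0.870 ± 0.207 at 0.1 µM. It was 0.844 ± 0.0596 at 1.0 µM and -0.0214 ± 0.0791 at 10 µM (SD, n = 3 each). It differed by 1.14 for 1.0 over 0.01 µM and by -0.892 for 10 over 0.1 µM (exact permutation p = 0.1 in both).

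**Figure D5:**
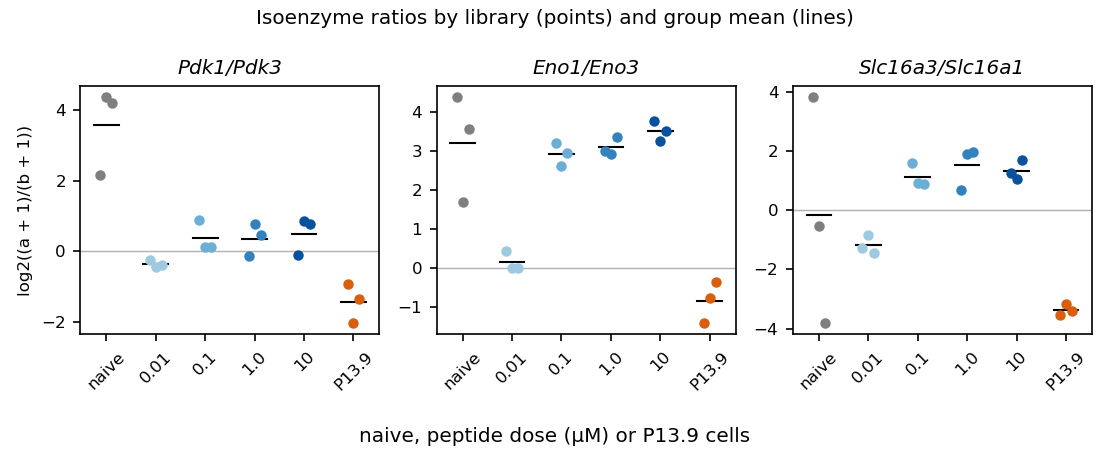
Log2 ratios of Pdk1 to Pdk3, Eno1 to Eno3 and Slc16a3 to Slc16a1 in each library (points) with the group mean (lines), after adding 1 to each value. All 12 activated libraries lie below the 3 naive ones for Pdk1/Pdk3, and Eno1/Eno3 is near 0 at 0.01 µM and below 0 in P13.9 cells.

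Promoters are shown for 4 of the genes that moved together across doses, since MYC and HIF1A are known to bind short motifs in glycolytic promoters. The sequences are the 250 bases before an annotated start, on the gene's strand, from RefSeq on build GRCm38.p6, and capitals mark ACGTG, the core of the hypoxia response element, on either strand (CACGT on the strand shown). A match inside the E-box CACGTG, the motif bound by MYC, counts on both strands. The Slc2a1 window is chr4:119108495-119108744 on the plus strand, 1 of 2 Ldha windows chr7:46845554-46845803 on the plus strand, Slc16a3 chr11:120948817-120949066 on the plus strand and Pfkp chr13:6648772-6649021 on the minus strand. The Slc2a1 window ends just before the annotated bounds of the gene. Those of Ldha, Slc16a3 and Pfkp lie within the bounds of their genes, so they do not precede the outermost start.
Slc2a1: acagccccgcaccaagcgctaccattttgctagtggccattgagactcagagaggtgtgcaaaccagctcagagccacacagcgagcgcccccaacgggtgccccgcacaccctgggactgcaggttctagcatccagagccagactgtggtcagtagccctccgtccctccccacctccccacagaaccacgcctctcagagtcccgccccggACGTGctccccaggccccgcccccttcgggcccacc
Ldha: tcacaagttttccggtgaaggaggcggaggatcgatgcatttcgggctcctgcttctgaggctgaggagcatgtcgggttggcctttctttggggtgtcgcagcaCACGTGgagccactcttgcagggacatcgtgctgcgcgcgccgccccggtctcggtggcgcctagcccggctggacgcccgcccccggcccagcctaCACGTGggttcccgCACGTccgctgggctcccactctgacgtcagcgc
Slc16a3: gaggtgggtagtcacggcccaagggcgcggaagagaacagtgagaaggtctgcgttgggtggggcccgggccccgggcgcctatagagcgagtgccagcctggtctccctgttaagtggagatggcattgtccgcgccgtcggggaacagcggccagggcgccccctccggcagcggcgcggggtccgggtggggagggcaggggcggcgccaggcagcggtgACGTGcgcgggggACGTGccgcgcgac
Pfkp: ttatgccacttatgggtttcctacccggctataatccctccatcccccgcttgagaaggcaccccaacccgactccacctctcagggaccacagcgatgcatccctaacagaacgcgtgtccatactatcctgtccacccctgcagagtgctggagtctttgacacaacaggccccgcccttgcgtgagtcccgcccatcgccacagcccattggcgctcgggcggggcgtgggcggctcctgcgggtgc

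The Ldha window shown held 5 matches in 3 stretches, with CACGTG among them, and the other Ldha window 0. Slc16a3 held 2 matches, Slc2a1 held 1 and Pfkp 0. Of 48 promoter windows of 34 of the genes, 20 (41.7%) held ACGTG or CACGT, as did 16.6% of all 32851 windows of the same length. CACGTG was in 5 of the 48 (10.4%) and in 6.02% of all windows. Windows of 1 gene can overlap, base composition was not matched, and a match of letters is a description of the sequence and not a binding site.

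Genes of neighbouring pathways were read from lists of further isoenzymes, pyruvate entry, the pentose phosphate pathway and regulators of glycolysis. Their counts at 10 µM over naive cells are to be read against all genes, where limma called 24.3% higher and 32.8% lower, and a count near these shares is no result about a list. Of 9 tested pentose phosphate genes 6 rose and 1 fell at 10 µM over naive cells by limma, and edgeR called 7 higher and 0 lower. Tkt, a transketolase, had 200.4 ± 10.8 at 10 µM and 47.8 ± 28.8 in naive cells (SD, n = 3 each), a log2 difference of 2.23 ± 0.32 (limma adjusted p = 2.8e-05). It was the 1 gene of this list that limma called at 10 µM over 0.01 µM (1.33 ± 0.32, limma adjusted p = 0.0168). There edgeR called 4 of the 9 genes higher and 1 lower, where it called 15.5% of all genes higher and 19.3% lower. Of 13 tested regulators 6 rose and 5 fell at 10 µM over naive cells by limma, and edgeR called 7 higher and 2 lower. Txnip, which encodes a protein that lowers glucose uptake, fell to a mean of 15.7 at 10 µM, against 129.5 in naive cells (log2 difference -2.87 ± 0.28, limma adjusted p = 5.6e-07), and Egln1, which encodes an oxygen-sensing prolyl hydroxylase, rose by 2.97 ± 0.54 (adjusted p = 0.000257).

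At 10 µM over 0.01 µM limma called 0 of the 13 regulators higher and 2 lower, where 1.90% of all genes were called higher and 6.25% lower. edgeR called 2 higher and 2 lower, where 15.5% and 19.3% of all genes were called. Hif1a had a log2 difference of -1.02 ± 0.25 (limma adjusted p = 0.022), and kept the call with either P13.9 share subtracted (adjusted p = 0.0159 and 0.0196). Rheb, an activator of MTOR, averaged 8.07 at 10 µM, 27.5 at 0.01 µM and 79.0 in P13.9 cells. Its log2 difference of -1.63 ± 0.44 (limma adjusted p = 0.0336) lost the call with either share subtracted, at 2.04 (adjusted p = 0.158) by the fibroblast estimate, with the sign turned, and -0.63 (0.621) by the other. Of 6 tested genes of pyruvate entry and oxidation 1 rose and 1 fell at 10 µM over naive cells by limma, and edgeR also called 1 in each direction. The fall was in Pdhx, a structural subunit of the pyruvate dehydrogenase complex (-2.75 ± 0.36, limma adjusted p = 1.16e-05). Of 10 tested further isoenzymes and transporters 2 rose and 4 fell at 10 µM over naive cells by limma, and edgeR called 3 higher and 2 lower. Among them was Bsg, the chaperone of monocarboxylate transporters, which rose by 1.76 ± 0.32 (limma adjusted p = 0.000265). Emb, a relative of Bsg, fell by 1.29 on the log2 scale (limma adjusted p = 1.47e-05).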

How the data were processed

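Messenger RNA was measured in 18 libraries of 6 groups. TRIzol was used for RNA extraction and the Lexogen QuantSeq kit for libraries of 3′ ends, run on a NextSeq 500, per the labels' protocols. STAR 2.6.1d, HTSeq 0.9.1, DESeq2 and FastQC 0.11.8 are named with build mm10 in the submitters' processing notes. The values are a signal, read counts that the authors divided by median-of-ratios size factors before they were deposited. Of 284544 values, 284543 (99.9996%) were whole multiples of what 1 read is worth in their library, within 1e-05 reads, and the read counts so recovered were used as reads. The 110 rows with no gene name held 12.4 to 15.6% of the reads of naive libraries and 1.94 to 5.36% elsewhere, and were left out.

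Members and lists were chosen with earlier results of these data known. limma 3.58.1 (R 4.3.3; lmFit and eBayes with a trend) was fitted to log2(value + 1), so folds of low genes can be understated. Against the uneven naive libraries they can also be overstated or turned. At 10 µM over naive cells Slc16a1 had a log2 difference of 0.83 with a ratio of means of 1.10. Eno3 had 0.18 there, with a ratio of means of 0.516. All 15 T cell libraries entered the fit (7264 genes), or all 18 for comparisons with P13.9 cells (8179 genes). A gene was called at a Benjamini-Hochberg adjusted p under 0.05. edgeR 4.0.16 (quasi-likelihood test) and DESeq2 1.42.0 were run on the recovered reads. On simulated data limma called more unchanged genes than edgeR against the shallow naive libraries and missed more changed genes between doses. The simulated counts followed the negative binomial model that edgeR fits, with the same dispersion for all genes and groups. They held no P13.9 or myeloid RNA as a separate part, so they cannot decide which test is right on these data. Both are given. Any of the 36 members could be named, and of each list of a neighbouring pathway at most the 4 genes with the smallest p in a comparison. To subtract a P13.9 share, that share of the mean P13.9 level was taken from each value and the remainder rescaled. Permutation tests and figures used Python 3.11.15 with SciPy 1.17.1, NumPy 2.4.6, pandas 2.3.3 and matplotlib 3.10.9. Replicate letters were not used to pair samples in the main fit. Of 18 correlations of deviations between same-lettered libraries (-0.197 to 0.2), 3 were over 0.1. These values cannot decide whether same-lettered libraries shared a mouse or culture. Intervals and floors cover counting error only, since reads carry no molecular identifier here.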

Additional observations from a re-analysis of the deposited data

Results flagged for a closer look

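In 4 genes the step from 0.01 to 1.0 µM differed from the step from 0.1 to 10 µM by limma's test of the mean of the middle doses minus that of the end doses on the log2 scale. This value averages over the doses of each side, so it is smaller than the difference between the steps. Pkm lost this call whichever library was left out, and Slc2a1 lost it in some of those fits. The value was 2.0196 for Slc2a3, 1.0047 for Slc2a1, 0.8906 for Pkm and 0.8001 for Pfkp, each positive. The log2 difference of 1.0 over 0.01 µM was 2.83 for Slc2a3, 1.70 for Slc2a1, 1.49 for Pkm and 1.47 for Pfkp. That of 10 over 0.1 µM was -1.21 for Slc2a3, -0.31 for Slc2a1, -0.29 for Pkm and -0.13 for Pfkp, and limma called none of these 4 at 10 over 0.1 µM. No cause was tested.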

How the results depend on the processing

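No call that limma made for a member in the main fit, and no isoenzyme ratio past the threshold, turned its direction under another setting. Genes not called in the main fit and genes of the neighbouring lists were outside this check. Pdha1, not called in the main fit at 0.01 µM over naive cells, was called higher there by edgeR (log2 difference 0.97, adjusted p = 0.0204). With the fibroblast share subtracted limma called Pdha1 lower there (-2.30, adjusted p = 0.0208). Of 2762 values of called genes and isoenzyme ratios under other settings, 2447 kept the call and 315 lost it, 165 of these with 1 library left out. With only genes of mean at least 20, calls fell to 12 at 10, 1.0 and 0.1 µM and 10 at 0.01 µM against naive cells, 11 for P13.9 over naive cells and 10 for 10 µM over P13.9 cells, since fewer genes were tested. These were 15 members over the T cell libraries and 13 over all 18. Of all 1438 genes then tested, 970, 936, 952 and 844 were called at 10, 1.0, 0.1 and 0.01 µM against naive cells. For P13.9 over naive cells 949 of 1466 were called. Fitting only the groups compared gave 7 calls at 0.01 µM over naive cells and 14 for P13.9 over naive cells, and DESeq2 gave 10 at 0.01 µM over naive cells. Among all genes these were 2348, 3046 and 2837, against 3588 at 0.01 µM and 4826 for P13.9 in the main fit. At 10 µM over 0.01 µM the count was 14 with a pseudocount of 5, 15 with quantile normalization, 21 with array weights and 20 with only these groups, edgeR, DESeq2 or the 12 activated libraries, a fit chosen after seeing the data. Over all 7264 genes these settings called 659, 845, 3334, 2547, 2528, 2330 and 1954 in that order, against 592 in the main fit. The counts of members are to be read against such rises over all genes. At 0.1 µM over 0.01 µM the member count was 14, 17, 23 and 20 under the first 4 of these settings, 21 with edgeR or DESeq2, 20 with the 12 activated libraries and 14 with the fibroblast share subtracted. All-gene calls there were 509, 703, 2340, 1402, 1744, 1543, 1661 and 540 in that order, against 406 in the main fit. At 1.0 µM over 0.01 µM the member count was 22 with array weights, 20 with edgeR or DESeq2 and 19 with only these groups or the 12 activated libraries. All-gene calls were 2060, 1623, 1436, 958 and 1374 in that order, against 312 in the main fit. For the middle against the end doses the member count was 18 with array weights or edgeR, 17 with DESeq2, 13 with only these groups or the 12 activated libraries, and 7 with the other share subtracted. All-gene calls were 1043, 611, 570, 552, 552 and 113 in that order, against 55 in the main fit. At 10 µM over 1.0 µM and over 0.1 µM the member count was 1 with array weights, edgeR or DESeq2. These settings called 145, 175 and 181 of all genes over 1.0 µM, and 274, 111 and 119 over 0.1 µM. With the replicate letter as a block in the 12 activated libraries, the counts were 17, 19, 19 and 12 for 10, 0.1 and 1.0 µM over 0.01 µM and the middle doses. Of all genes 1739, 1426, 1175 and 415 were called there. All 33 gene calls made between doses were kept under this block, and in 5 of 18 comparisons with the same-lettered library of another dose the correlation was the highest.

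With 1 library left out the counts were 18 to 20, 18 to 21, 19 to 21 and 11 to 18 for 10, 1.0, 0.1 and 0.01 µM over naive cells, 4 to 6 for 10 and for 0.1 µM over 0.01 µM, 6 to 9 for 1.0 over 0.01 µM, 2 to 3 for the middle doses, 0 between the 3 upper doses, 18 to 22 for P13.9 over naive cells and 13 to 15 for 10 µM over P13.9 cells. Over all genes limma then called 3657 to 4784, 3428 to 4631, 3583 to 4720 and 2938 to 4329 against naive cells, in the same order of doses. Over 0.01 µM it called 275 to 387 at 10 µM, 88 to 223 at 0.1 µM and 112 to 202 at 1.0 µM. For the middle doses the range was 21 to 51, and for P13.9 over naive cells 4307 to 5302. Isoenzyme ratios past the threshold numbered 3 between activated and naive cells and 4 for the dose slope with a pseudocount of 5, and 0 to 1 and 1 to 3 with 1 library left out. Over all genes at 10 µM against 0.01 µM, limma called 592, edgeR 2528 and DESeq2 2330, and at 10 µM over naive cells limma called 1765 higher and 2380 lower, against 2153 and 1837 by edgeR. The cause was not tested for any of these differences unless named. The 27789 to 97757 named reads of a naive library limit what can be shown for genes with few reads there.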
